A study of Mus musculus with 2 samples.

Results

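The 8 genes Otc, Mgst1, Dmbt1, Nlrp6, Tm4sf20, Kcnq1ot1, Prap1 and Prlr, metabolic, defence and regulatory genes of the gut epithelium, were followed across 12 classes of crypt cells. They were taken from the 31053 genes of the matrices for one pattern, a high level in ISC and a low level in SEC-PRO. They were selected on their measured levels: unique molecular identifiers (UMIs, each standing for 1 captured RNA molecule) were added up per class and library, and ENTERO-PRO was set beside ISC. Their levels in these 3 classes are therefore given as a description, without a test. No numerical limit was set for the choice.

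All cells came from the ileal crypts of Atoh1CreER-T2;R26RTom mice. Atoh1CreER-T2 is a recombinase made where Atoh1, the transcription factor of secretory fate, is active, and R26RTom marks a recombined cell and its descendants with a red fluorescent protein (Tom+). Tamoxifen, which switches the recombinase on, was injected in 2 doses of 1 mg/mL with 24 h between them, and Tom+ cells were collected by flow cytometry 12 h after the second. There was 1 group of 2 libraries, both labelled wild type (WT), and whether they came from separate animals is not stated. Library was a term in the main fits. Their p-values therefore measure only how differences between sets of cells vary between these 2 libraries, moderated across genes. In the splits of ISC, with 1 residual degree of freedom, those p-values rest mostly on the spread pooled over genes and on UMI counting. No spread between animals can be read from them. All cells carried the driver and had met tamoxifen, and the sort kept cells with a history of Atoh1 activity, the ISC-class cells included. The classes are the authors' own, by the names in their cell table, and no explanation of the names was used beyond a check of markers. No source used here gave the age of the mice.

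Crypt stem cells divide into progenitors that turn either to the absorptive fate (enterocytes) or to the secretory fates (goblet, Paneth, enteroendocrine and tuft cells). High Notch signalling keeps Atoh1 off and favours the absorptive fate, and loss of Notch signalling lets Atoh1 rise. The 8 genes have different roles. Otc encodes ornithine transcarbamylase, a mitochondrial enzyme that makes citrulline and in the small intestine works in arginine synthesis. Mgst1 encodes a membrane-bound glutathione transferase. Dmbt1 encodes a secreted scavenger receptor glycoprotein that binds bacteria, and Nlrp6 a cytosolic sensor of the NOD-like family. Prap1 encodes a secreted proline-rich acidic protein, Prlr the receptor for prolactin, which signals through JAK2 and STAT5, and Tm4sf20 a membrane protein of the transmembrane 4 L6 family. Kcnq1ot1 is a long noncoding RNA made from the paternal allele, antisense to Kcnq1, which silences neighbouring imprinted genes.

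The sequences before 4 of the start sites are shown because they are the promoters of genes that shared the pattern from 1 start each. They are the 250 bases upstream of the start in the RefSeq annotation of GRCm38.p6, read 5′ to 3′ on the gene's own strand. Capitals mark matches to motifs of intestinal or secretory factors that were searched on both strands: a GATA-type AGATAA in Prap1, a CAGCTG E-box of the kind ATOH1 binds in Nlrp6 (also in 1 start of Prlr, not shown), and in Kcnq1ot1 the reverse complement of a CDX-type TTTATNG. Otc had no match.
Otc (chrX:10252055-10252304, plus strand): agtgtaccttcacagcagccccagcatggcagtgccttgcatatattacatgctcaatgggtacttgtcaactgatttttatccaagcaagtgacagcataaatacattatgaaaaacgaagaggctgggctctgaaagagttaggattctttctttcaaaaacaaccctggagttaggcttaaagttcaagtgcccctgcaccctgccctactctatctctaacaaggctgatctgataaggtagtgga
Prap1 (chr7:140093146-140093395, plus strand): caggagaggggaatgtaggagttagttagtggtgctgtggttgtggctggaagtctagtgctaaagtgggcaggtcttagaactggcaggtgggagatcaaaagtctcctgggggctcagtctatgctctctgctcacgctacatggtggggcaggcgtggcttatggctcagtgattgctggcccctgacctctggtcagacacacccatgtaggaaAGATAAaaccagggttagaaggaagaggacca
Nlrp6 (chr7:140920652-140920901, plus strand): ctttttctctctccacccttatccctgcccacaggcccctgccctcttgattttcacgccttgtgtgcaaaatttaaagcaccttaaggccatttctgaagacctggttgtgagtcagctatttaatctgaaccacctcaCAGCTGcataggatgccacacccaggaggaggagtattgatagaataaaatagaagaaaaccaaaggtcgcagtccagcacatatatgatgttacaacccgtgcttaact
Kcnq1ot1 (chr7:143296548-143296797, minus strand): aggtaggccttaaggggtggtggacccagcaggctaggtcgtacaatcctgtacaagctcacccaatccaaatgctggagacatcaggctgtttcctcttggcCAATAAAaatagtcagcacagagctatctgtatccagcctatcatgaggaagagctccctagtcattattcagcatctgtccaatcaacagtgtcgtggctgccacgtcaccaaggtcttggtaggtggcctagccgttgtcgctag
Promoters were matched for 6 of the 8 genes, 9 start sites in all, since Mgst1 and Prlr have several. Dmbt1 and Tm4sf20 were not matched. Over 32851 promoters of the same length, AGATAA stood in 9.99%, CAGCTG in 13.001% and TTTATNG in 9.81%. TGGGAA, the RBPJ motif through which Notch acts, stood in 21.6% of all and in 1 of the 9. CTTTGAT, a TCF motif of Wnt signalling, stood in 3.21% and in 1 of the 9, and both of these were starts of Prlr. The HNF4 motif CAAAGTCCA (0.384% of all) and the nuclear receptor repeat CAAAGGTCA (0.426%) stood in 0 of the 9. No motif was shared by more than 2 of the 9 promoters, and a match in these letters is not a measured binding site.

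The listed cells numbered 5305 with 32656481 UMIs in replicate 1 and 6257 with 27014983 UMIs in replicate 2, and 12 barcodes were listed in both. Cells of replicate 1 were deeper, with a median of 5706 UMIs against 3503 in replicate 2. Markers were read against the class names. The 6 ISC markers, among them Lgr5 and Olfm4, summed to 2637 and 1565 CPM (UMI counts scaled by TMM to a common total) in ISC and to 656 and 621 CPM in SEC-PRO, in replicates 1 and 2. Atoh1 was at 110 and 92.1 CPM in SEC-PRO and at 15.5 and 20.7 CPM in ISC. The 4 secretory progenitor markers, Atoh1 among them, summed to 346 and 332 CPM in SEC-PRO, but to 435 and 407 CPM in GP, so SEC-PRO was not their highest class. ENTERO-PRO held the highest sums of 8 enterocyte markers, 13757 and 5780 CPM against 291 and 295 CPM in ISC, and also 46435 and 47397 CPM of 6 goblet markers, against 7774 and 12395 CPM in ISC. The part of these goblet RNAs in the ENTERO-PRO levels was not tested. Markers of immune, mesenchymal, endothelial and red blood cells stayed between 0 and 36.5 CPM in every class. No doublet caller was run, and the listed cells held 601 to 2999 genes each. In the order used below, the first value of a pair is replicate 1 and the second replicate 2.

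Of the metabolic genes, Otc (ENSMUSG00000031173, chromosome X) stood at 8.72 and 10.2 CPM in SEC-PRO, at 162 and 159 CPM in ENTERO-PRO, and at 163 and 141 CPM in ISC. The mean level in SEC-PRO was 9.48 ± 1.07 CPM and in ISC 152 ± 15.0 CPM (SD, n = 2 each), and the log2 difference of SEC-PRO over ISC was -3.99 ± 0.23 (SE). ENTERO-PRO and ISC overlapped, and the third class, TUFT, lay apart from both at 19.97 and 40.4 CPM. Otc was listed at 0 UMIs in both GOBLET libraries, where 3 UMIs, the limit that a count of 0 allows, equal 29.6 and 18.5 CPM.

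Mgst1 (ENSMUSG00000008540, chromosome 6) stood at 11.05 and 18.4 CPM in SEC-PRO, at 247 and 257 CPM in ENTERO-PRO and at 192 and 151 CPM in ISC. Its log2 difference was -3.56 ± 0.29 in SEC-PRO over ISC and 0.56 ± 0.25 in ENTERO-PRO over ISC, and the libraries of ENTERO-PRO lay above those of ISC. Mgst1 had a further step, TUFT, at 88.6 and 94.3 CPM, which was 46.2% and 62.3% of the ISC level of the same library. TUFT overlapped neither ISC nor the next class, PANETH, at 14.6 and 34.1 CPM.

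Among the defence genes, Dmbt1 (ENSMUSG00000047517, chromosome 7) stood at 34.3 and 72.1 CPM in SEC-PRO, at 507 and 797 CPM in ENTERO-PRO and at 399 and 548 CPM in ISC, a log2 difference of -3.23 ± 0.31 in SEC-PRO over ISC. It was higher in replicate 2 than in replicate 1 in 11 of 12 classes, so that the libraries of ENTERO-PRO and ISC overlapped. Within each library ENTERO-PRO was above ISC, at 127% and 146% of its level. Nlrp6 (ENSMUSG00000038745, chromosome 7) stood at 7.75 and 19.7 CPM in SEC-PRO, at 101 and 145 CPM in ENTERO-PRO and at 136 and 136 CPM in ISC, a difference of -3.37 ± 0.24 in SEC-PRO over ISC. It too was higher in replicate 2, in 12 of 12 classes. Prap1 (ENSMUSG00000025467, chromosome 7) differed from the others in the absorptive class. It stood at 9.50 and 17.7 CPM in SEC-PRO, at 642 and 451 CPM in ENTERO-PRO and at 105 and 87.2 CPM in ISC, so that ENTERO-PRO was at 610% and 518% of ISC. The log2 difference of Prap1 was 2.52 ± 0.28 in ENTERO-PRO over ISC and -2.84 ± 0.37 in SEC-PRO over ISC.

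Prlr (ENSMUSG00000005268, chromosome 15) stood at 12.8 and 10.5 CPM in SEC-PRO, at 103 and 81.7 CPM in ENTERO-PRO and at 78.1 and 74.3 CPM in ISC. The log2 difference was -2.70 ± 0.16 in SEC-PRO over ISC, the smallest of the 8, and 0.27 ± 0.16 in ENTERO-PRO over ISC. Like Mgst1, it held an intermediate level in TUFT, 49.9 and 42.3 CPM, apart from ISC above and from PANETH below (13.7 and 20.5 CPM). In the enteroendocrine classes the receptor was near the counting limit, with 2 and 5 UMIs in NON-EC, 1 and 1 in EC, and 3 and 0 in EEC-PRE.

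Kcnq1ot1 (ENSMUSG00000101609, chromosome 7) had the largest difference of SEC-PRO over ISC, -4.53 ± 0.18, with 6.20 and 7.16 CPM in SEC-PRO against 167 and 141 CPM in ISC. In ENTERO-PRO it was at 35.4 and 47.4 CPM, below both ISC libraries, a log2 difference of -1.85 ± 0.19 over ISC. Its highest class was TUFT, with 256 and 183 CPM, both above both ISC libraries. Kcnq1, the potassium channel gene on the other strand, was at 3.88 and 4.86 CPM in SEC-PRO, at 77.4 and 53.9 CPM in TUFT and at 44.0 and 46.6 CPM in ISC. No source used here gives the strand setting of the counting, so reads of Kcnq1ot1 and Kcnq1 cannot be told apart with certainty. The same holds for Prap1 and Fuom, which overlap on opposite strands, and for Dmbt1 and Fgfr2. Prlr overlaps Gm21973 on its own strand. Fuom, which encodes fucose mutarotase, stood at 46.3 and 30.2 CPM in SEC-PRO and at 56.8 and 39.6 CPM in ISC, a log2 difference of -0.31 ± 0.14.

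Tm4sf20 (ENSMUSG00000026149, chromosome 1) stood at 13.4 and 15.1 CPM in SEC-PRO, at 203 and 140 CPM in ENTERO-PRO and at 212 and 130 CPM in ISC, a log2 difference of -3.57 ± 0.22 in SEC-PRO over ISC. It was also high in the hormone-producing classes, with 235 and 154 CPM in NON-EC and 158 and 122 CPM in EC. The libraries of these 4 classes overlapped along the order NON-EC, ENTERO-PRO, ISC and EC, and EC lay apart from the next class, TUFT, at 32.4 and 42.3 CPM. Within each library NON-EC was above ISC (111% and 119% of it) and EC below (74.8% and 93.8%). ENTERO-PRO was at 95.8% and 108%.

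Set against ISC of the same library, SEC-PRO held between 3.72% (Kcnq1ot1) and 20.2% (Prap1) of each gene's level, with a median of 8.81% over the 16 values. GP, GOBLET-PRE and PANETH-PRE had medians of 5.75%, 5.47% and 11.4%. All 16 values lay below 50% of ISC in SEC-PRO, GP, GOBLET, GOBLET-PRE, PANETH, PANETH-PRE and EEC-PRE, against 14 of 16 in NON-EC and in EC, 11 in TUFT and 2 in ENTERO-PRO. These levels are sums over cells, so fewer cells with the RNA and less RNA per cell cannot be told apart in them.

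**Figure D1:**
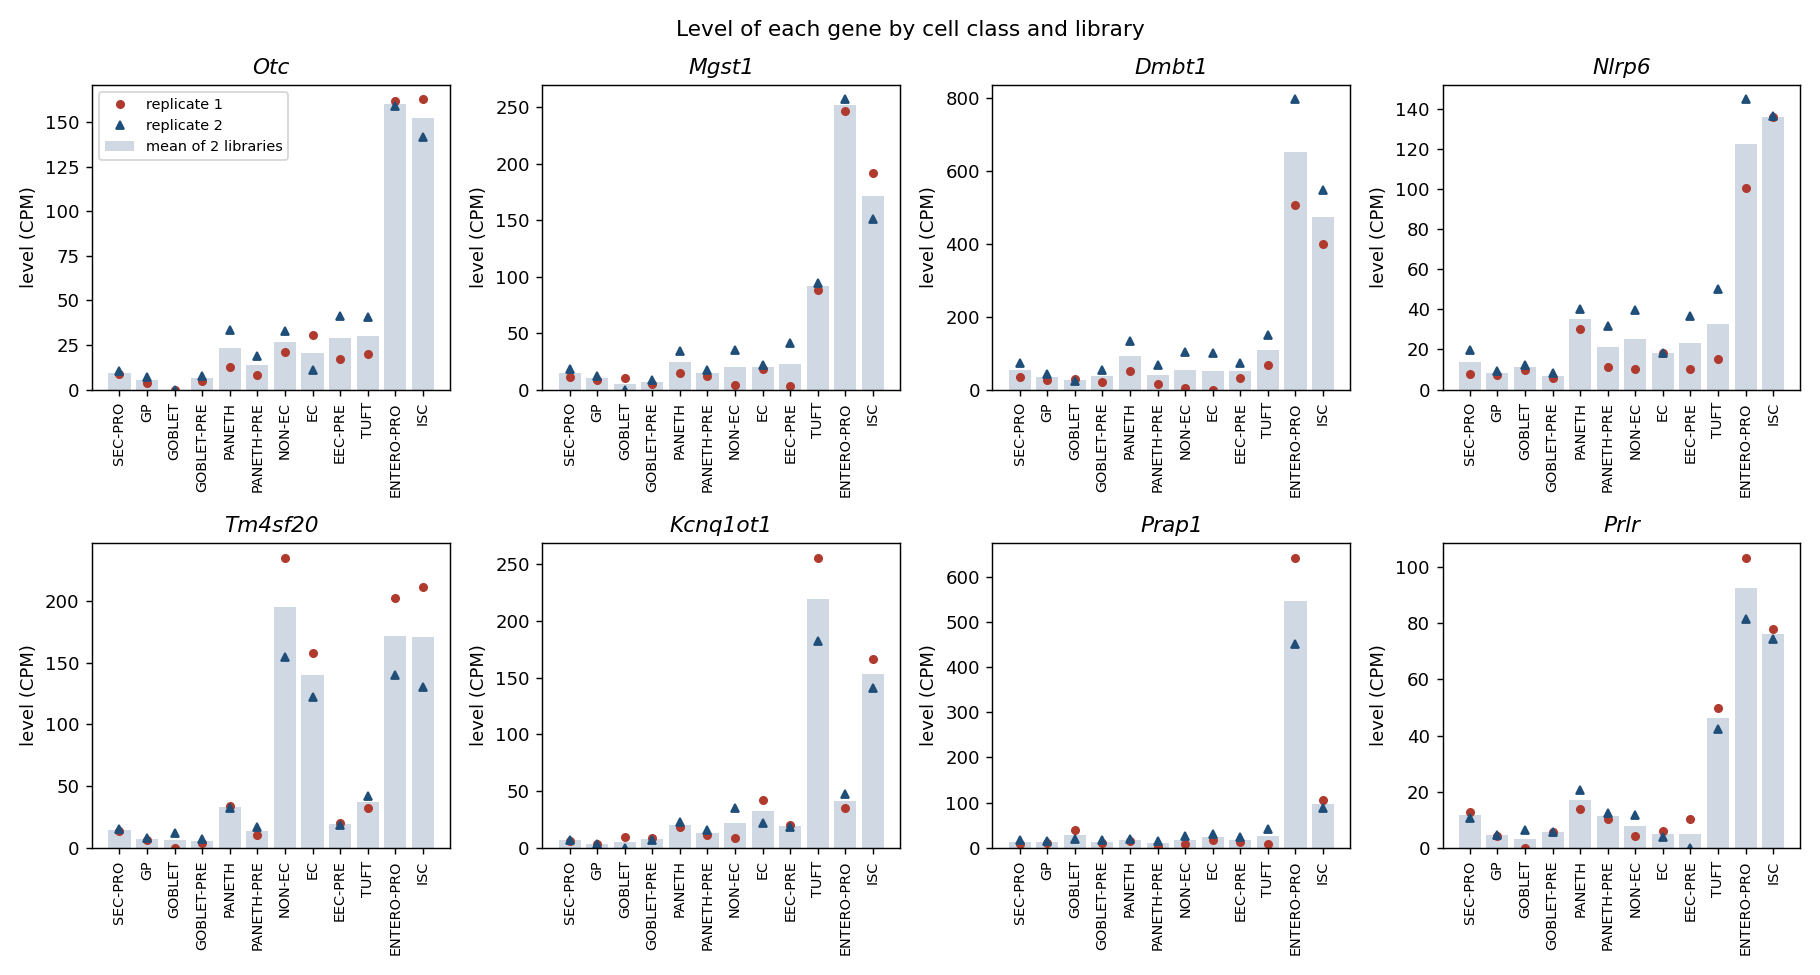
Level of each of the 8 genes (CPM, scaled between sums; linear axes that start at 0) in 12 cell classes, with bars for the mean of 2 libraries and points for each library. Every panel but those of Kcnq1ot1 and Prap1 is high in ENTERO-PRO and ISC together. Prap1 is high in ENTERO-PRO, with ISC next but far lower. Kcnq1ot1 is low in ENTERO-PRO and highest in TUFT, and Tm4sf20 is also high in NON-EC and EC.

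Free RNA, the RNA of broken cells, was read from barcodes that held no more than 50 UMIs each and together 1208373 and 1166363 UMIs. On CPM of raw totals, each gene lay below its free RNA level in SEC-PRO in both libraries and above it in ISC in both. Otc, for example, was at 11.2 and 12.9 CPM in SEC-PRO and at 202 and 181 CPM in ISC, with 48.8 and 62.6 CPM in free RNA. The margin was smallest for Prap1, with 131 and 112 CPM in ISC against 111 and 105 CPM in free RNA. An upper limit came from the Paneth cell marker with the lowest ratio of class to free level, taken as free RNA throughout. In SEC-PRO this was the defensin Defa30 in both libraries, which put at most 7.60% and 7.36% of the UMIs as free RNA. In ISC it was Itln1 in replicate 1 (7.12%) and Defa30 in replicate 2 (6.61%). Free RNA would then bring between 16.9% (Prlr) and 69.8% (Kcnq1ot1) of a gene's level in SEC-PRO, and in ISC between 1.59% and 6.24%. In GP this limit ran from 47.4% to 158%, and in GOBLET-PRE from 38.8% to 89.0%.

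**Figure D2:**
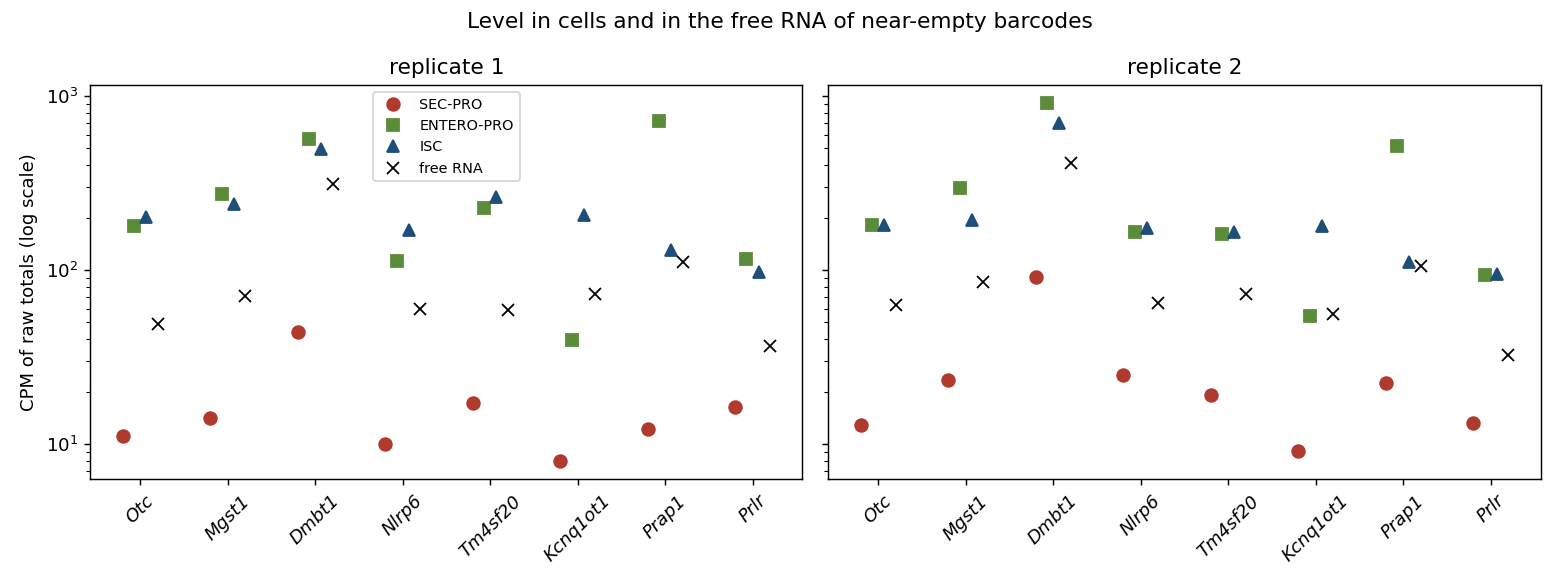
CPM of raw totals (log scale) of the 8 genes in SEC-PRO, ENTERO-PRO and ISC and in free RNA (barcodes of up to 50 UMIs), 1 panel per library. Free RNA lies above SEC-PRO and below ISC for each gene in both libraries, and above ENTERO-PRO for Kcnq1ot1.

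In single cells the pattern was one of many cells rather than of a few. Each cell was thinned to 2000 UMIs, which left out 375 cells of replicate 1 and 901 of replicate 2. At this depth 4.02% and 6.50% of SEC-PRO cells held UMIs of 2 or more of the 8 genes, against 75.0% and 72.2% of ISC cells. ENTERO-PRO was like ISC in this count, with 67.7% and 78.9%, and TUFT lay between, with 27.7% and 29.9%. None of the 8 was seen in 82.9% and 73.4% of SEC-PRO cells, against 3.50% and 5.66% of ISC cells.

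Otc was seen in 13 of 672 and 17 of 692 thinned SEC-PRO cells, 1.93% and 2.46% (95% Clopper-Pearson intervals 1.03% to 3.29% and 1.44% to 3.90%). In ISC it was seen in 163 of 515 and 478 of 1555 cells, 31.7% and 30.7% (27.7% to 35.9% and 28.5% to 33.1%). Without thinning, 4.39% to 4.604% of SEC-PRO cells and 50.03% to 60.2% of ISC cells held an Otc UMI. The median UMIs per cell were then 5413 and 3488.5 for SEC-PRO, against 5825 and 3973 for ISC. GOBLET-PRE, a class in which free RNA could bring up to 64.1% and 55.5% of the Otc level, gave 0.843% and 1.16% of thinned cells. These intervals cover counting error only.

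The genes showed little tendency to be seen in the same ISC cells. Over the 28 pairs of the 8 genes, the correlation of detection across thinned ISC cells had a median of 0.00284 in replicate 1 (515 cells) and 0.0144 in replicate 2 (1555 cells), between -0.17 and 0.15. Such values in sparse counts are no finding. Detection of the stem cell marker Olfm4 correlated with that of Dmbt1 at -0.38 and -0.42, and with that of Nlrp6 at 0.22 and 0.19 and of Kcnq1ot1 at 0.20 and 0.20. Cells of 1 library share its free RNA, and these values carry no test.

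**Figure D3:**
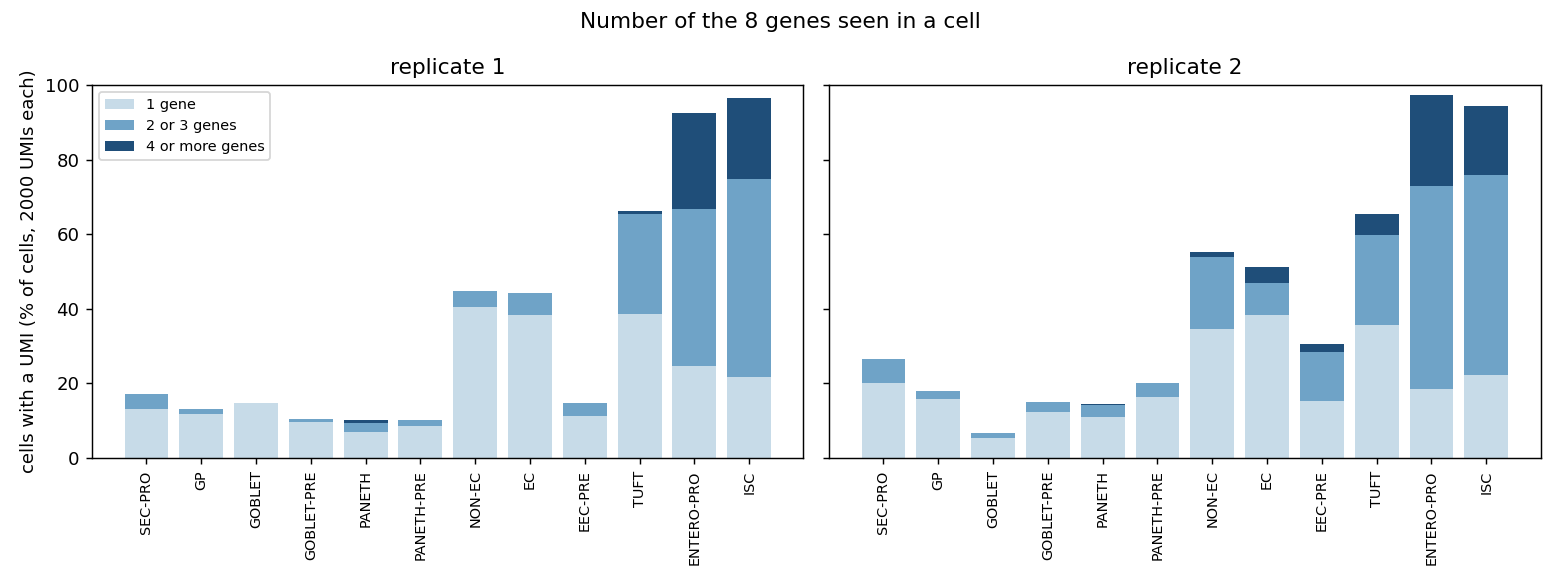
Share of cells (%, each thinned to 2000 UMIs) with a UMI of 1, of 2 or 3, and of 4 or more of the 8 genes, by class, 1 panel per library. ISC and ENTERO-PRO stand highest, TUFT, NON-EC and EC between, and the other classes, SEC-PRO included, hold mostly cells with none.

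The ISC class was divided by Lgr5, the receptor that marks crypt stem cells, since the choice of the genes made no use of differences among ISC cells. Cells with an Lgr5 UMI numbered 134 and 248, and those without 419 and 1491. With 4 sums the fit had 1 residual degree of freedom before moderation across genes. At an adjusted p under 0.05, 7 of the 8 genes differed, where 14.1% of the 9364 genes tested did. Of the 8, 4 were higher and 3 lower in cells with Lgr5, where 8.44% of all genes were higher and 5.65% lower. The 8 genes were chosen for high ISC levels, and genes with more UMIs are called more readily. In each split of ISC the shares over all genes were not matched for level. Lgr5 itself was lower in SEC-PRO than in ISC (log2 difference -2.99 ± 0.27), so counts in this split are not independent of the choice.

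Dmbt1 fell in the Lgr5 cells. It stood at 124 and 136 CPM in ISC cells with an Lgr5 UMI and at 611 and 783 CPM in those without, and the groups did not overlap. The log2 difference was -2.43 ± 0.09, 5.39-fold lower with Lgr5 (edgeR adjusted p = 1.34e-161, and 3.12e-172 to 0.00858 over 6 other settings). Prap1 fell as well, to 71.9 and 44.0 CPM with Lgr5 against 149 and 122 CPM without, a log2 difference of -1.25 ± 0.15 (edgeR adjusted p = 4.35e-14). Mgst1 was at 214 and 143 CPM with Lgr5 and at 246 and 202 CPM without, -0.35 ± 0.10 (edgeR adjusted p = 0.00964).

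Kcnq1ot1 and Nlrp6 rose in the Lgr5 cells. Kcnq1ot1 stood at 320 and 341 CPM with Lgr5 and at 173 and 158 CPM without, a log2 difference of 1.02 ± 0.09 (edgeR adjusted p = 9.92e-25). Nlrp6 stood at 244 and 309 CPM with Lgr5 and at 146 and 156 CPM without, 0.89 ± 0.10 (edgeR adjusted p = 3.85e-17). Both genes had higher levels with Lgr5 in each library. Smaller increases were called for Prlr (133 and 117 CPM with, 86.4 and 92.4 CPM without, 0.46 ± 0.13) and Tm4sf20 (311 and 208 CPM with, 249 and 161 CPM without, 0.35 ± 0.10). Otc, at 189 and 182 CPM with and 207 and 181 CPM without, was not called (-0.06 ± 0.11, adjusted p = 0.804).

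The calls of Mgst1, Prlr and Tm4sf20 were lost with DESeq2 (adjusted p = 0.238, 0.423 and 0.443) and in thinned cells (0.329, 0.439 and 0.737), so that DESeq2 called 4 of the 8, where it called 6.65% of the 2284 genes it adjusted. Without the replicate block 1 of the 9364 genes was called, and it was Dmbt1 (edgeR adjusted p = 0.00858). Other stem cell genes moved with the split: Olfm4 stood at 4603 and 2657 CPM with Lgr5 and at 1538 and 865 CPM without, and Ascl2 at 84.2 and 64.3 against 30.6 and 21.3 CPM. Cells with Lgr5 were shallower, with medians of 5299 and 3390.5 UMIs against 5920 and 4064 without. Thinned cells were divided anew, and only 68 and 140 kept an Lgr5 UMI, against 447 and 1415 without. The thinned fit thus changes depth and groups together, and the part of depth in the unthinned calls was not tested apart from that.

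Among fixed lists in the same split, absorptive lipid and digestion genes were called lower with Lgr5 in 4 of 11 tested and higher in 0, among them Fabp6, an ileal bile acid binding protein (-2.49 ± 0.20). On the list of absorptive transcription factors 4 of 18 were called higher and 1 lower (3 and 2 with TMM over all genes and with DESeq2 size factors). Vdr (0.56 ± 0.12) and Hes1 (0.49 ± 0.11) were among the higher. Luminal defence genes were called lower in 5 of 12 and higher in 1, and inflammasome and cell death genes lower in 3 of 13, among them Gsdmc4, a gasdermin (-4.01 ± 0.51). In the imprinted Kcnq1 domain 3 of 7 were higher, Kcnq1 (0.74 ± 0.16), Ascl2 (1.53 ± 0.19) and Cd81 (0.94 ± 0.09), the last chosen after its values were seen. Over all tested genes the share of called genes that were higher was 59.9%, and 46.1% and 44.7% with TMM over all genes and with DESeq2 size factors, which left the counts of the other 4 lists named here the same apart from 1 more luminal defence gene lower.

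ISC cells with an Atoh1 UMI numbered 44 and 167, and those without 509 and 1572. The 8 genes were chosen for low levels in SEC-PRO, where Atoh1 was higher than in ISC. Signs and counts in this split are therefore not independent of that choice. All 8 genes had a negative log2 difference, with a median of -0.47 against -0.03 over all genes, and 5 were called lower, where 4.91% of 9569 genes were called, 3.64% higher and 1.27% lower. Prlr alone had another sign in thinned cells (0.04). The largest was again Kcnq1ot1, at 109 and 110 CPM with Atoh1 and at 218 and 190 CPM without (-0.86 ± 0.14, edgeR adjusted p = 1.60e-06). Nlrp6 was at 123 and 115 CPM with Atoh1 and at 174 and 182 CPM without (-0.60 ± 0.14, adjusted p = 0.00132).

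Mgst1, at 160 and 144 CPM with Atoh1 against 247 and 201 CPM without (-0.53 ± 0.12), Otc, at 112 and 149 against 212 and 185 CPM (-0.51 ± 0.13), and Tm4sf20, at 186 and 134 against 271 and 171 CPM (-0.43 ± 0.12), were called too. Dmbt1 was not, at 455 and 690 CPM with Atoh1 and at 499 and 700 CPM without (-0.07 ± 0.08). DESeq2 called only Kcnq1ot1 of the 8, where it called 2.49% of the 4931 genes it adjusted. None of the 8 was called in thinned cells, nor without the replicate block, where 0 of all 9569 genes were. Thinned cells were divided anew, and only 17 and 62 kept an Atoh1 UMI, against 498 and 1493 without. In thinned cells the difference was -0.07 for Otc and -0.24 for Tm4sf20, while it was -0.76 for Kcnq1ot1, -0.58 for Nlrp6 and -0.55 for Mgst1. Cells with an Atoh1 UMI were deeper, with medians of 8419.5 and 6090 UMIs against 5679 and 3815 without. They also held less Lgr5 (31.5 and 12.1 CPM with Atoh1, 78.6 and 51.6 CPM without).

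By Mki67, a marker of dividing cells, 338 and 979 ISC cells had a UMI and 215 and 760 had none, and 3 of the 8 genes were called where 7.52% of 9880 genes were, 3.95% higher and 3.57% lower. Dmbt1 was higher with Mki67, at 531 and 802 CPM against 428 and 510 CPM without (0.52 ± 0.06, edgeR adjusted p = 3.86e-19). Kcnq1ot1 was lower, at 190 and 152 CPM with Mki67 against 245 and 231 CPM without (-0.52 ± 0.07, adjusted p = 8.46e-11), and Nlrp6 at 163 and 157 against 181 and 206 CPM (-0.31 ± 0.08, adjusted p = 0.00117). None of the 3 was called by DESeq2 (which called 2.12% of the 8347 genes it adjusted) or without the replicate block, and Dmbt1 alone was called in thinned cells. Thinned cells were divided anew, 225 and 654 with an Mki67 UMI and 290 and 901 without. There the difference was 0.32 for Dmbt1, -0.13 for Kcnq1ot1 and -0.05 for Nlrp6. Lgr5 and Olfm4 were lower in the cells with Mki67 (-1.03 ± 0.13 and -0.79 ± 0.04), and those cells were deeper (medians of 6384.5 and 4774 UMIs against 4978 and 3130.5). The other 5 genes were not called.

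**Figure D4:**
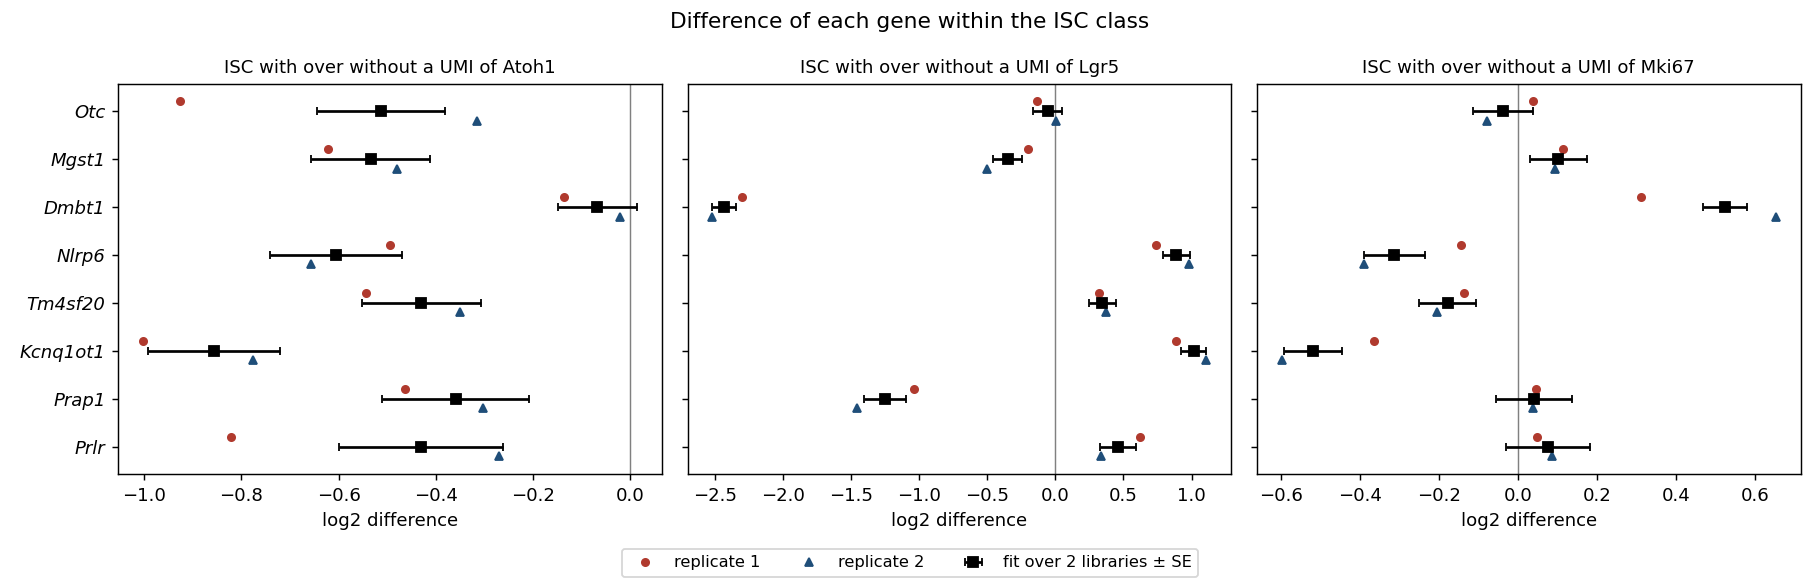
Log2 difference of each gene within the ISC class, cells with over cells without a UMI of Atoh1, Lgr5 or Mki67, as the fit over 2 libraries ± SE and as each library alone. The 8 genes lie on 1 side for Atoh1, and for Lgr5 Dmbt1, Prap1 and Mgst1 lie opposite to Kcnq1ot1, Nlrp6, Prlr and Tm4sf20.

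Beyond SEC-PRO, 4 steps along the secretory branches were tested. In the enteroendocrine branch 1 of the 8 genes was called, and called higher, against 9.61% of 10994 genes tested, 6.06% higher. Tm4sf20 stood at 235 and 154 CPM in NON-EC and at 20.3 and 18.3 CPM in EEC-PRE, from 113 and 66 UMIs against 6 and 4. The log2 difference was 3.35 ± 0.54, 10.2-fold higher in NON-EC (edgeR adjusted p = 0.000267, and 2.50e-18 to 0.000479 over 6 other settings). A UMI was seen in 39.4% and 33.3% of thinned NON-EC cells, against 1.85% and 4.35% of EEC-PRE cells. On raw totals Tm4sf20 was at 304 and 201 CPM in NON-EC and at 58.8 and 72.9 CPM in free RNA. The 9 enteroendocrine markers summed to 18122 and 11540 CPM in NON-EC and to 2150 and 2498 CPM in EEC-PRE. The other 7 genes were not called.

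In the goblet branch 1 of the 8 genes was called in GOBLET-PRE against GP, where 9.39% of genes were, 4.9% higher. Kcnq1ot1 was at 8.44 and 6.88 CPM in GOBLET-PRE and at 3.30 and 3.23 CPM in GP, from 128 and 38 UMIs against 13 and 10 (log2 difference 1.25 ± 0.33, edgeR adjusted p = 0.00636). The call ended without the replicate block (adjusted p = 0.0966) and in thinned cells (0.224), and the limit of free RNA was 52.3% and 55.9% of the level in GOBLET-PRE and 158% and 119% in GP. In GOBLET against GOBLET-PRE edgeR called 0 of the 8 (12.1% of all genes), with 0 at an unadjusted p under 0.05 and 0 by DESeq2 (11.5%). The GOBLET sums held only 154169 and 232707 UMIs, which gave each of the 8 genes between 0 and 4 UMIs.

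In PANETH against PANETH-PRE edgeR called 0 of the 8 (8.1% of all genes), with Dmbt1 and Tm4sf20, 2 genes, at an unadjusted p under 0.05 and 0 by DESeq2 (6.59% of the 10354 genes it adjusted). All 8 differences were positive, with a median of 0.78 against 0.09 over all genes. Tm4sf20, for example, stood at 33.8 and 32.6 CPM in PANETH and at 10.4 and 16.6 CPM in PANETH-PRE (1.31 ± 0.44, adjusted p = 0.0790). All 8 stayed positive in 6 other settings, the lowest value being 0.57 for Prlr. The direction depended on whether sums were scaled at all, with scaling factors of 0.229 and 0.256 for PANETH. On CPM of raw totals, without these factors, all 8 genes were lower in PANETH in both libraries. Tm4sf20 was then at 7.74 and 8.34 CPM in PANETH against 8.80 and 14.4 CPM in PANETH-PRE.

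Genes that share pathways with the 8 were read from fixed lists in SEC-PRO against ISC, where 34.5% of all genes were called, 19.2% higher and 15.3% lower. Of 16 tested genes of the urea cycle and arginine metabolism, 6 were called lower and 4 higher. Cps1, which feeds carbamoyl phosphate to the Otc reaction, was lower (-2.56 ± 0.21), as were Nags, which makes its activator (-1.81 ± 0.29), and Oat, which makes ornithine (-1.44 ± 0.14). Pycr1, of proline synthesis, was higher (1.09 ± 0.36). Of 19 glutathione and detoxification genes 8 were lower and 2 higher, with Gss, glutathione synthetase, at -1.19 ± 0.15, and Gsta4 (-0.97 ± 0.22), Gsto1 (-0.92 ± 0.11) and Cbr1 (-0.86 ± 0.14) next.

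The inflammasome and cell death list was called in both directions, 5 higher and 4 lower of 15. Gsdmc4 (-3.73 ± 0.33) and Gsdmc2 (-3.73 ± 0.37), 2 near-identical gasdermins whose reads may be shared, and Naip1 (-1.18 ± 0.26) were lower, and Naip6, another receptor of bacterial proteins, was higher (0.81 ± 0.12). Luminal defence genes were likewise mixed, 4 higher and 3 lower of 15. The membrane mucin Muc3 (-2.86 ± 0.39) and the nitric oxide synthase Nos2 (-2.62 ± 0.39) were lower, and the lectin Reg4 (2.12 ± 0.32) and the fucosyltransferase Fut2 (1.82 ± 0.28) higher.

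The 16 genes of prolactin and JAK-STAT signalling had 2 higher and 2 lower. Ghr, the growth hormone receptor (1.08 ± 0.29), and Stat3 (0.87 ± 0.14) were higher, and Socs2, a feedback inhibitor of cytokine signalling (-0.83 ± 0.12), was among the lower. The other members of the transmembrane 4 L6 family, 2 of them tested, had none called. In the imprinted Kcnq1 domain 3 of 10 were lower and 2 higher. Ascl2, a stem cell transcription factor (-3.68 ± 0.29), Kcnq1 (-3.36 ± 0.24) and Cd81 (-1.03 ± 0.12) were lower, and the cell cycle inhibitor Cdkn1c was higher (1.27 ± 0.37). Other nuclear noncoding RNAs mostly differed from Kcnq1ot1 in sign, with 3 higher and 1 lower of 5, among them Neat1 (1.57 ± 0.15), Airn (1.04 ± 0.22), Malat1 (0.60 ± 0.13) and Snhg12 (-0.64 ± 0.14).

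Of 21 genes of absorptive lipid handling and digestion 9 were lower and 1 higher, among them Mep1a, a brush border protease (-4.40 ± 0.83), Fabp6 (-2.36 ± 0.46), Apob (-2.33 ± 0.45) and Sis, sucrase-isomaltase (-2.17 ± 0.60). On the list of 18 absorptive transcription factors 7 were lower and 2 higher. Vdr, the vitamin D receptor (-1.70 ± 0.13), Hes1, a Notch target (-1.31 ± 0.12), and Ppara (-1.28 ± 0.33) were lower and Klf4 higher (1.98 ± 0.14). Not all of this list was highest in the absorptive class. Klf4 was highest in GOBLET, at 1394 and 1169 CPM against 245 and 243 CPM in ENTERO-PRO. Hes1 was at 87.0 and 149 CPM in ISC and at 46.8 and 76.1 CPM in ENTERO-PRO. The list medians ran from -1.71 for the absorptive genes to 0.60 for the nuclear noncoding RNAs, against 0.02 over all genes, and the median of the 8 genes, chosen for this contrast, was -3.46. The share of called genes that were higher was 55.6%, and 42.4% and 39.2% with TMM over all genes and DESeq2 size factors. With both of these the urea cycle list had 8 lower and 2 higher. The glutathione and detoxification list then had 10 and 11 lower, luminal defence 4 lower, and prolactin and JAK-STAT signalling 3 lower. The imprinted Kcnq1 domain had 1 higher with both. Absorptive transcription factors had 8 lower with DESeq2 size factors alone. The counts of the other lists stayed the same. No p-value adjusted over a list alone is given, since the lists were chosen with results of these data known.

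In ENTERO-PRO against ISC, where 37% of genes were called, 18.6% higher and 18.4% lower, the lists are read beside SEC-PRO against ISC, which shares the ISC libraries. The absorptive list had 21 of 21 higher, and the inflammasome and luminal defence lists 12 of 15 each higher and 0 lower. Gsdmc4 (2.61 ± 0.19), Muc3 (2.40 ± 0.29) and Nos2 (1.23 ± 0.35) were higher in ENTERO-PRO. Cps1 was lower there too (-1.27 ± 0.24), while Otc, which acts on its product, differed by 0.08 ± 0.20. In the imprinted Kcnq1 domain 5 of 10 were lower and 1 higher, with Kcnq1 at -0.91 ± 0.28 beside the -1.85 of Kcnq1ot1.

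Over the 24 sums of class and library, the genes most like the mean profile of the 8 were Lad1, an anchoring filament protein (Pearson r = 0.92), Sptssa, a subunit of serine palmitoyltransferase (0.90), Ociad2 (0.89) and Cps1 (0.89), out of 3753 genes whose average log2 CPM reached 5. Aprt, Maoa, Prdx6, Cluh, Prpsap1 and Me2 followed, from 0.85 to 0.83. The nearest genes to single members were Pgam1 for Otc (0.92) and for Tm4sf20 (0.89), Lad1 for Mgst1 (0.87), the ATP synthase subunit Atp5d for Dmbt1 (0.88), the chemokine Ccl25 for Nlrp6 (0.85), Ptprd for Kcnq1ot1 (0.80), Apol10a for Prap1 (0.94) and Sptssa for Prlr (0.89). Among the 8 themselves the 28 correlations had a median of 0.69, the highest between Mgst1 and Kcnq1ot1 (0.84) and the lowest between Dmbt1 and Tm4sf20 (0.25). The 24 points share libraries and classes, and the genes were chosen for alike levels in 2 of the classes, so these are descriptions.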

How the data were processed

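Libraries of Tom+ ileal crypt cells were made with 10x Genomics 3′ v3.1 chemistry, per the labels' protocols. The submitters' processing notes name Cell Ranger 3.0.2, STAR and the genome build mm10. In the deposited matrices each entry is an unnormalized UMI count, and barcodes without cells were kept. A deposited table gives the class of each listed cell. Its UMI counts per cell, which equal those of the matrices in 77.6% and 73.9% of cells and differ by at most 25 UMIs, and its percent of mitochondrial UMIs are the authors' values, and its rules for cells, doublets and classes are not given in the sources used here.

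Raw counts were added up per class and library (24 sums), and edgeR 4.0.16 in R 4.3.3 fitted a robust quasi-likelihood model with class and library as terms to the 10994 genes its filter kept (11 residual degrees of freedom, median biological coefficient of variation 0.0641). Genes whose average log2 CPM reached 6 gave the TMM factors. Benjamini-Hochberg adjusted p under 0.05 counted as a call. Splits of ISC were fitted alike on 4 sums and scaled within them, and for thinned cells the groups were drawn anew from the thinned counts. The classes were set by the authors from the same expression values, so p-values between classes are not independent evidence. DESeq2 1.42.0 with its size factors, TMM over all genes, no low-count filter, no library block, cells thinned to 2000 UMIs and each library alone were alternatives. The scripts were tested on simulated data. Same-numbered sums come from 1 library and therefore pair the sums: their deviations from the class means correlated at a median of 0.26 over 66 class pairs (0.04 to 0.77, 3929 genes).

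Genes named were the 8, the 3 most alike genes of each (the nearest is printed) and the 10 of their mean, up to 4 called genes with the largest difference in SEC-PRO against ISC per list, and Atoh1, Lgr5, Olfm4, Ascl2, Kcnq1 and Fuom. Genes named from these lists in other contrasts, and Cd81 in the Lgr5 split, were taken from the same lists. A gene that this rule names is not reported here. The 8 genes and the lists were chosen with earlier results of these data known. Coordinates are GENCODE M21 on GRCm38 and RefSeq on GRCm38.p6, both the assembly of mm10. Exact intervals have a confidence level of 95%, and 3 counts were the limit that a count of 0 allows. Depth limits what single cells show, and the values cover counting error only.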

Additional observations from a re-analysis of the deposited data

How the results depend on the processing

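Of the 576 recomputed log2 differences of single genes 516 were labelled the same, 36 lost a call and 2 gained one. Another 22 moved by more than the spread between libraries, and none of the called ones changed sign. In tested contrasts under other settings, the same meant the call alone, and size was not compared. In SEC-PRO and ENTERO-PRO over ISC, and with 1 library, it meant a shift smaller than the SD between libraries. Of 232 that were not called under either setting 12 changed sign, and the 232 stand among the 516. Only a call of the fit reported could be lost, and those were few. They were 7 by Lgr5, 5 by Atoh1, 3 by Mki67, 1 in GOBLET-PRE and 1 in NON-EC, each rerun under 6 other settings. The 36 lost calls are to be read against these reruns, not against the 576. The Dmbt1 difference by Lgr5 and the Tm4sf20 difference in NON-EC over EEC-PRE were called under every alternative run. The median of the 8 genes in SEC-PRO over ISC stayed between -3.95 and -2.95 when a library was left out, against -3.46, and in ENTERO-PRO over ISC it was 0.17, against 0.11 with DESeq2 size factors, 0.10 with DESeq2, 0.16 thinned and, leaving out a library, 0.15 to 0.17. ISC was the highest class for 1 of the 8 genes, Nlrp6, for 2 on thinned cells or raw totals, and for 0 to 2 with 1 library.

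Thinned to 2000 UMIs, called genes numbered 2407 for SEC-PRO over ISC (3790 in the fit reported), 2300 for ENTERO-PRO (4071), 299 for PANETH (891), 612 for GOBLET-PRE (1032), 615 for NON-EC (1057), and in ISC 54 by Atoh1 (470), 291 by Lgr5 (1319) and 385 by Mki67 (743). Without the replicate block they numbered 1911 for SEC-PRO, 283 for PANETH, 116 for GOBLET-PRE, 0 by Atoh1, 1 by Lgr5 and 86 by Mki67. With DESeq2 they numbered 610 for GOBLET-PRE, 123 by Atoh1, 152 by Lgr5 and 177 by Mki67. Of the 8 genes, those called by Lgr5 (7 as reported) were 4 with DESeq2, 4 thinned and 1 without the block. Those by Atoh1 (5) were 1, 0 and 0, and those by Mki67 (3) were 0, 1 and 0. In PANETH (0) 1 gene was called without a low-count filter and 1 thinned, and in GOBLET-PRE (1) 0 were called thinned and 0 without the block.

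TMM over all genes moved the share of called genes that were higher from 67.8% to 39.2% in GOBLET, from 65.5% to 55.3% in PANETH and from 52.2% to 63.4% in GOBLET-PRE, and DESeq2 size factors moved it from 63.0% to 47.5% in NON-EC. The median of all genes shifted by over 0.1 in SEC-PRO (0.02 to -0.11 with DESeq2 size factors), GOBLET (-0.08 to -0.43 with TMM over all genes) and NON-EC (0.18 to 0.03). The cause was not tested. The splits had 1 residual degree of freedom, and rare classes such as GOBLET were too shallow for genes of a few CPM.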

Other observations

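Dmbt1, Prap1, Nlrp6 and Kcnq1ot1, 4 of the 8 genes, lie between positions 131032053 and 143296549 of chromosome 7 (GRCm38), a stretch of 12.3 Mb that holds 0.783% of the 10986 tested genes with a position. Of the other 82 tested genes there, 19 were called higher and 17 lower in SEC-PRO over ISC, which is 20.7% lower against 15.3% of all genes, with a median log2 difference of 0.03. Since the 8 genes were chosen for this contrast, the count of 4 carries no test.

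TUFT levels of the 7 genes other than Kcnq1ot1 are given beside each other. Set against ISC of the same library, TUFT was at 63.9% and 56.9% for Prlr and 46.2% and 62.3% for Mgst1, against 12.3% and 28.6% for Otc, 16.6% and 27.4% for Dmbt1, 11.04% and 36.7% for Nlrp6, 15.3% and 32.6% for Tm4sf20 and 8.31% and 48.5% for Prap1. Replicate 2 had the higher share for the last 5 and for Mgst1, and replicate 1 for Prlr.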
